A study of Arabidopsis thaliana with 6 samples.

Results

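The class III peroxidases of Arabidopsis form a family of 73 genes, numbered PRX1 to PRX73. A list of 33 of them was followed through RNA of young flower buds, in plants that carry the transgene BnA9::BnMAGL8.1 and in wild type (WT) plants. The 33 genes were chosen by name, with earlier results of these libraries known, and their rows were taken from the count table of each library. Of these, 29 had a count in at least 1 library and 20 passed edgeR's filter on low counts and were tested.

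Class III peroxidases are secreted plant enzymes with a heme group that use hydrogen peroxide to oxidize phenolic compounds, and some of them also produce hydrogen peroxide and other reactive oxygen species. In cell walls they couple lignin precursors and link structural proteins such as extensins, which stiffens the wall, while the reactive oxygen they make can loosen it. In anthers, PRX9 and PRX40 are peroxidases of the tapetum, the cell layer that surrounds and feeds the developing pollen, and the double mutant has a swollen, disordered tapetum and is male sterile.

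Buds with anthers of stages 6 to 9 were compared between 3 BnA9::BnMAGL8.1 replicates and 3 WT replicates, all of the ecotype Columbia (Col in the labels, Col-0 in the study's methods) and kept in a greenhouse at 23 °C under 16 h of light a day. The promoter of BnA9 is active in the tapetum and drives the coding sequence of a monoacylglycerol lipase of rapeseed, which the study names BnaC.MAGL8.a. The study describes these plants as male sterile. How many plants or transgenic lines the replicates hold, and the hour of sampling, is not given in the sources used here. These replicates are called biological in the study's methods, and a p-value reflects only the spread among these 6 samples. Whole buds were used, so fewer cells of a type and less RNA per cell cannot be told apart.

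The libraries held between 13519945 and 14729927 counts. The transgene, the only entry that is not an Arabidopsis locus, had 5552, 853 and 9594 counts in transgenic replicates 1, 2 and 3 and 0 counts in each WT library. The tapetum was represented in the buds: the summed level of 13 tapetum markers lay between 1291 and 3499 CPM (counts scaled to library size) over the libraries. Of the 13, 12 had counts and 11 passed the filter, while DYT1 had no count. A count alone says little, since only 3873 of the 27628 Arabidopsis genes had none. Libraries also differed apart from genotype: along the first principal component, which held 34.3% of the variance, transgenic replicate 3 stood with WT replicates 1 and 2, and transgenic replicates 1 and 2 stood with WT replicate 3. A score of clock genes, the mean log2 level of TOC1, GI, LUX, ELF4 and PRR5, which peak late in the day, minus that of LHY, CCA1 and RVE8, which peak early, was 3.68, 2.82 and 6.96 in the transgenic replicates and 4.80, 6.80 and -1.04 in the WT replicates.

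First, it was examined which peroxidases were expressed in buds at all. With a floor of 3 counts per library, which corresponds to 0.193 to 0.240 CPM (counts scaled to library size), 24 of the 33 genes lay above the floor in at least 1 library and 15 lay above it in every library. No count was found for PRX2, PRX37, PRX64 and PRX73. PRX64 acts in the lignification of the Casparian strip of roots and PRX73 in root hair growth. The coding sequence of PRX2 is identical to that of its neighbor PRX1, and every stretch of 50 bases in the PRX2 transcript also occurs in PRX1. A read of PRX2 could therefore not be placed uniquely, and its 0 counts do not show that it is silent. PRX1 had no count either.

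A further 9 genes had counts but were too low for the test, namely PRX14, PRX20, PRX32, PRX36, PRX38, PRX44, PRX53, PRX57 and PRX69. The highest count among them was 18, for PRX32 in transgenic replicate 3. PRX32 had 2, 14 and 18 counts in the transgenic libraries and 0, 6 and 0 counts in the WT libraries, so the genotypes overlapped. PRX36, which acts in the release of mucilage from the seed coat, had 2 counts in transgenic replicate 2 and none elsewhere. PRX44, another root hair peroxidase, had 4, 0 and 2 counts in the transgenic libraries and 0, 0 and 2 counts in the WT libraries.

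Levels were then set per length, as CPM per kb of exon. PRX42 was the highest in either genotype, with 542.8 to 674 CPM per kb in transgenic buds and 399 to 700.1 CPM per kb in WT buds. It was followed by PRX12, with 233 ± 28.5 CPM per kb in transgenic buds and 186 ± 21.6 CPM per kb in WT buds (SD, n = 3 each). Among the genes tested, the lowest in WT buds was PRX22, with 0.862 to 2.69 CPM per kb in transgenic buds and 0 to 0.154 CPM per kb in WT buds. PRX42 alone made up 56.0 ± 2.71% of the summed CPM of the 33 genes in transgenic buds and 61.5 ± 6.68% in WT buds (SD, n = 3 each), and these shares overlapped.

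Among the 33 genes, PRX40 and PRX9 had ranks 3 and 4 per kb of exon in WT buds, below PRX42 and PRX12. PRX34, PRX71, PRX17, PRX66, PRX3 and PRX49 came next, and the remaining 10 tested genes lay at or below 6.01 CPM per kb. Most neighbors in this order did not differ beyond the spread of their 3 libraries. The libraries of neighbors were separated only between PRX42 and PRX12, between PRX12 and PRX40, and between PRX33 and PRX25. In transgenic buds rank 3 was taken by PRX49, with 73.9 ± 24.1 CPM per kb, against 8.31 ± 2.71 CPM per kb and rank 10 in WT buds (SD, n = 3 each). There, neighbors were separated between PRX42 and PRX12, between PRX12 and PRX49, and between PRX3 and PRX33. The annotation holds no untranslated region for PRX40, so its length is its coding length, and with coding lengths for all genes PRX40 moved to rank 5 in WT buds behind PRX9 and PRX34.

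**Figure D1:**
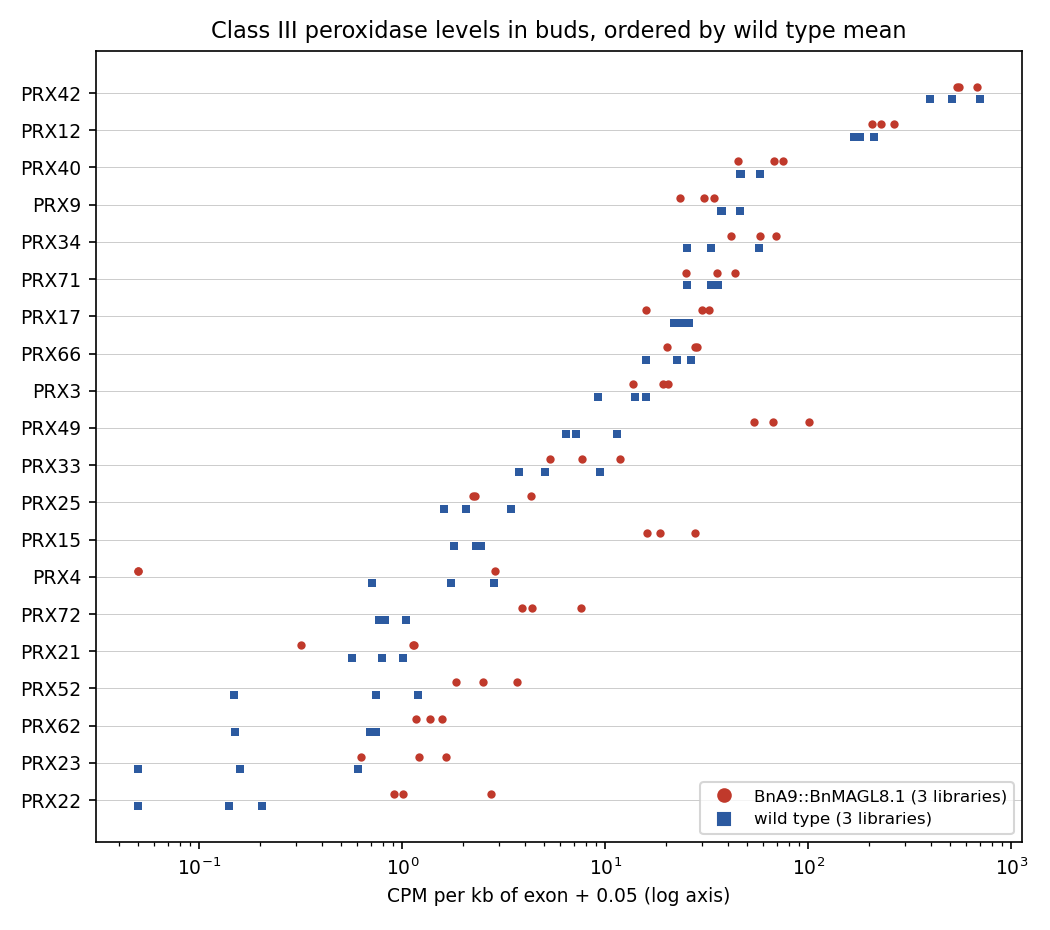
Levels of the 20 tested class III peroxidases in CPM per kb of exon plus 0.05 on a log axis, with 1 point for each library (circles, BnA9::BnMAGL8.1; squares, WT) and genes ordered by their WT mean. PRX42 and PRX12 lead in each genotype, and PRX49 and PRX15 are displaced to the right in all 3 transgenic libraries.

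Next, the levels were compared between genotypes with edgeR's quasi-likelihood test, with Benjamini-Hochberg adjustment over all 18642 genes tested. At an adjusted p under 0.05, 2 of the 20 tested peroxidases rose, PRX15 and PRX49, where 0.0107% of all genes tested were called higher. None was called lower, against 0.00536% of all genes. By the unadjusted p under 0.05, 1 peroxidase was lower (PRX9) and 7 were higher, against 4.26% and 2.57% of all genes, and neither DESeq2 nor limma's voom called a lower one. At an unadjusted p under 0.01, edgeR gave 5 higher (PRX15, PRX22, PRX49, PRX52 and PRX72) and 0 lower. Of all genes, 0.595% were higher and 0.848% lower. The study applied this threshold with DESeq2 and reports these 5 peroxidases as up-regulated in the same libraries. DESeq2 gave the same 5 here. The list was drawn up with earlier results of these libraries known, so these counts describe it and are not independent evidence.

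In direction, 18 of the 20 had a log2 fold change above 0, as had 47.9% of all genes tested, and 2 had one below 0, as had 52.1% of all genes. Their median was 0.39, beside -0.015 for all genes. The 3 transgenic libraries lay above the 3 WT libraries for 7 genes (5.56% of all genes) and below them for 1 gene, PRX9 (6.61% of all genes). The other 12 overlapped. Of these 12, PRX4 had a log2 fold change of -0.80 and the others lay between 0.11 and 0.55. PRX22 reached the minimum count of the filter in transgenic libraries only, and such a gene had to differ. PRX23, PRX52 and PRX62 reached it in every transgenic library but not in every WT library. They were thus tested in part through the group in which they were higher. PRX15, PRX49 and PRX72 reached it in every library.

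**Figure D2:**
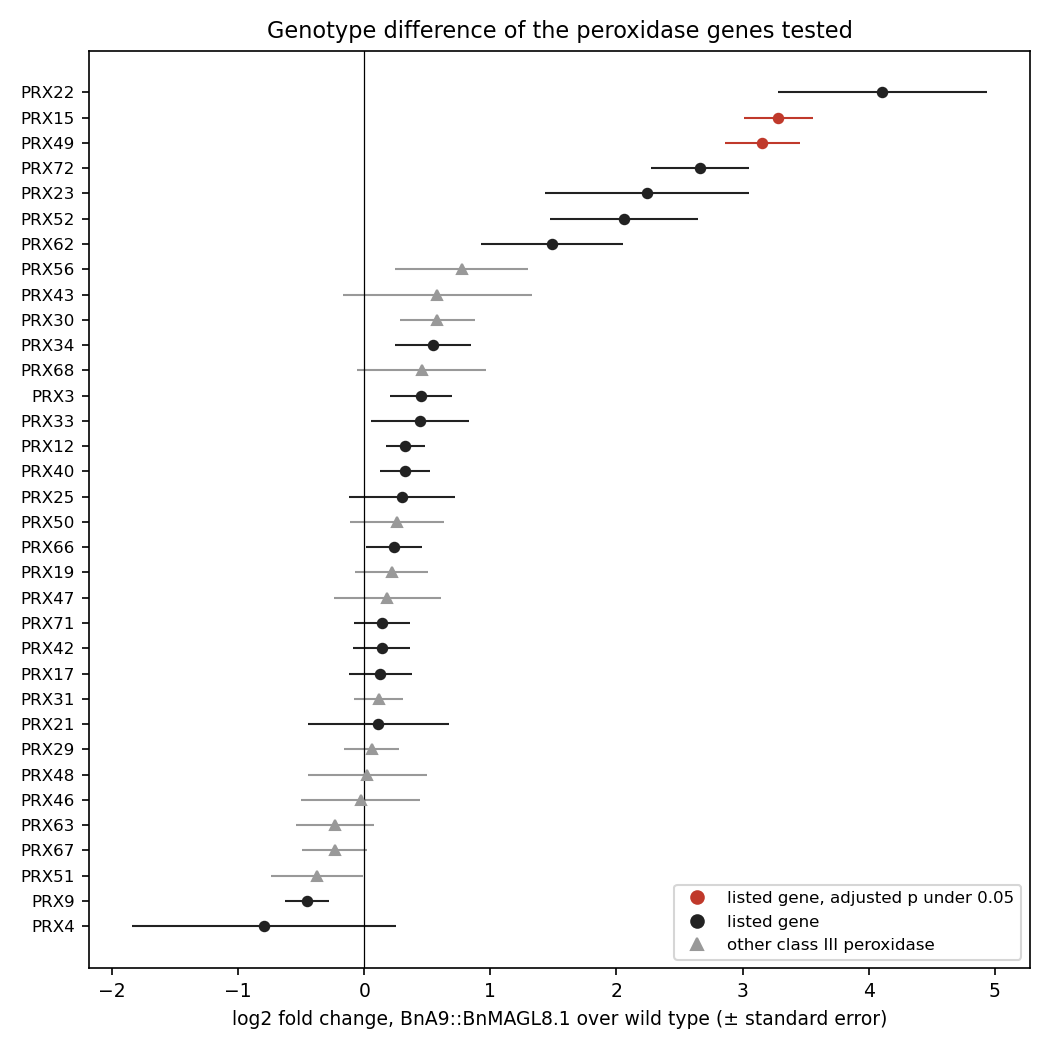
Log2 fold changes of BnA9::BnMAGL8.1 over WT buds with their standard errors from edgeR, for the 20 tested genes of the list (circles; the 2 with an adjusted p under 0.05 in red) and 14 other class III peroxidases (triangles). PRX22, PRX15, PRX49, PRX72, PRX23, PRX52 and PRX62 stand apart from the rest, which lie between -0.80 and 0.77.

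PRX15 (AT2G18150, chr2:7892034-7893709 on the minus strand of TAIR10.1) showed 22.5, 25.9 and 38.9 CPM in the transgenic libraries and 3.35, 3.15 and 2.44 CPM in the WT libraries. Every transgenic library was above every WT library, and transgenic replicate 3 was the highest. The mean was 29.1 ± 8.64 CPM in transgenic buds and 2.98 ± 0.477 CPM in WT buds (SD, n = 3 each), a 9.76-fold difference, at a log2 fold change of 3.28 with a standard error of 0.27 and an adjusted p of 0.0188 by edgeR. The call was lost without WT replicate 1 (adjusted p = 0.146) or 2 (0.129), with limma's voom (0.0724) and with the replicate number as a block (0.311), while the fold change lay between 3.02 and 3.44 on the log2 scale over 14 alternatives.

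PRX49 (AT4G36430, chr4:17204385-17206033 on the minus strand) was the most abundant of the genes that differed. Its level was 92.2, 74.2 and 138 CPM in the transgenic libraries and 8.75, 15.7 and 9.83 CPM in the WT libraries. The lowest transgenic library lay well above the highest WT library, and replicate 3 was again the highest transgenic one. By edgeR, the log2 fold change was 3.16 with a standard error of 0.30 and an adjusted p of 0.0259, with 102 ± 33.2 CPM in transgenic buds and 11.4 ± 3.73 CPM in WT buds (SD, n = 3 each). The call was lost without transgenic replicate 1 (adjusted p = 0.0792) and without WT replicate 1 (0.146) or 2 (0.0882), with limma's voom (0.0723) and with the replicate number as a block (0.412).

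PRX72 (AT5G66390, chr5:26515905-26517599 on the minus strand), a peroxidase of stem lignification, had 69, 85 and 152 counts in the transgenic libraries and 16, 19 and 16 counts in the WT libraries. The genotypes did not overlap, but the adjusted p was 0.280 (edgeR; log2 fold change 2.67, standard error 0.39). DESeq2 called it higher (adjusted p = 2.5e-06). PRX22 (AT2G38380, chr2:16076289-16078781 on the plus strand) had 18, 22 and 63 counts in the transgenic libraries and 4, 2 and 0 counts in the WT libraries. Its log2 fold change was 4.11 with a standard error of 0.83 and an adjusted p of 0.353 by edgeR. The value rests on WT counts at or near the floor, and PRX22 was called higher by DESeq2 (adjusted p = 0.0047). Of all genes with an adjusted p from DESeq2, 0.161% were called higher, and 4 of the listed peroxidases were among them: PRX15, PRX22, PRX49 and PRX72.

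PRX52, PRX23 and PRX62 were also higher in each transgenic library, at low counts. PRX52 (AT5G05340, chr5:1578869-1580875 on the minus strand), which acts in lignin formation in the fibers between vascular bundles, had 29, 44 and 66 counts in the transgenic libraries and 2, 20 and 13 counts in the WT libraries. WT replicate 1 was far below the other WT replicates, and edgeR gave a log2 fold change of 2.06 with a standard error of 0.58 and an adjusted p of 0.644. PRX23, the tandem neighbor of PRX22, had 10, 22 and 31 counts in the transgenic libraries and 12, 2 and 0 counts in the WT libraries. In raw counts WT replicate 1 thus exceeded transgenic replicate 1, and the genotypes were separated only after scaling, with 0.801 CPM in transgenic replicate 1 against 0.772 CPM in WT replicate 1. PRX62, which promotes root hair growth in the cold, had 18, 27 and 24 counts in the transgenic libraries and 2, 12 and 12 counts in the WT libraries. Neither was called by edgeR (adjusted p = 0.720 for each).

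**Figure D3:**
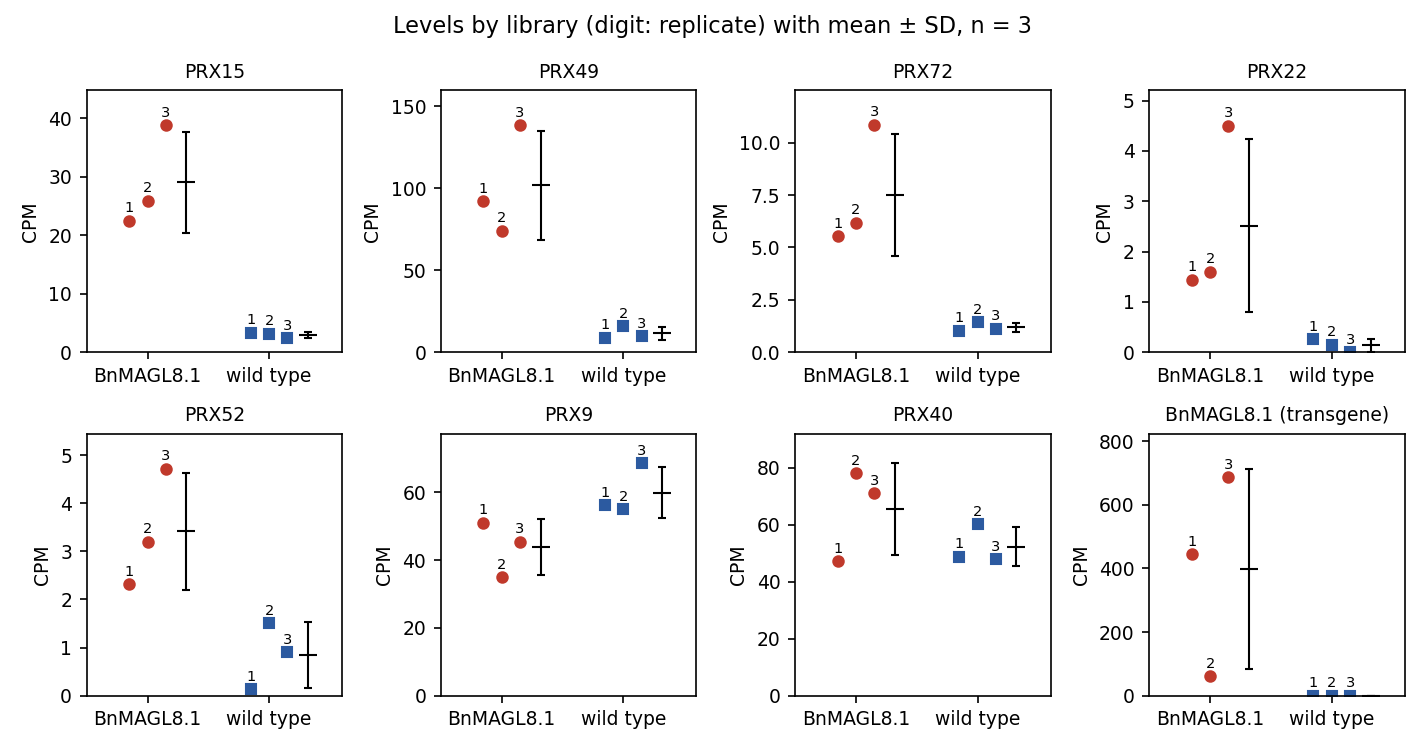
CPM of 7 peroxidases and of the transgene in each library, with the replicate number beside each point and the mean ± SD (n = 3) to the right of each genotype. Transgenic replicate 3 is the highest for PRX15, PRX49, PRX72, PRX22 and PRX52, and the transgene spans from 62.1 to 686 CPM among the transgenic replicates.

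The transgene had 444, 62.1 and 686 CPM in transgenic replicates 1, 2 and 3, a range of 11.0-fold. PRX15 spanned 1.73-fold and PRX49 1.87-fold over the same libraries. Transgenic replicate 3 was the highest in 6 of the 7 genes whose genotypes were separated, and PRX62 was the exception. Transgenic replicate 2, which had the lowest transgene level, exceeded replicate 1 in PRX15, PRX72, PRX22, PRX23, PRX52 and PRX62, and fell below it in PRX49, which thus had the same order of the transgenic libraries as the transgene.

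The tapetum peroxidases were then examined beside these genes. PRX9 (AT1G44970, chr1:17002089-17003867 on the plus strand) had 637, 479 and 636 counts in the transgenic libraries and 872, 734 and 982 counts in the WT libraries. Each transgenic library lay below each WT library, at 43.8 ± 8.20 CPM in transgenic buds and 59.9 ± 7.45 CPM in WT buds (SD, n = 3 each). The log2 fold change of -0.45 (standard error 0.17) had an unadjusted p of 0.0288 and an adjusted p of 0.720 by edgeR, so PRX9 was not called.

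PRX40 (AT4G16270, chr4:9205080-9206483 on the plus strand) had 47.3, 78.2 and 71.1 CPM in the transgenic libraries and 48.8, 60.2 and 48.0 CPM in the WT libraries. Transgenic replicate 1 was the lowest of all 6 libraries and replicates 2 and 3 were the highest, so the genotypes overlapped. By edgeR, the log2 fold change was 0.33, with the opposite sign to PRX9, at a standard error of 0.20 and an adjusted p of 0.765. The difference between the changes of PRX9 and PRX40 was not tested. Of the PRX40 stretches of 50 bases, 5.41% also occur in AT4G16267, which overlaps it, and since the use of strand in counting is not given, reads of that gene cannot be told apart there.

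Markers of the tapetum, a list of 13 genes, were set beside PRX9. Of the 11 tested, all had a log2 fold change below 0, as had 52.1% of all genes tested, with a median of -0.72 beside -0.015 for all genes, and none was called by edgeR, DESeq2 or voom. By an unadjusted p under 0.05, 2 were lower, against 4.26% of all genes. AMS, a transcription factor of the tapetum, had 727, 529 and 714 counts in the transgenic libraries and 1119, 1233 and 1261 counts in the WT libraries. Each transgenic library lay below each WT library (log2 fold change -0.77, standard error 0.18, unadjusted p = 0.0021, adjusted p = 0.565, edgeR). By real-time PCR, the study reports AMS, MS188, CYP704B1, ACOS5, MS2 and PKSB as lower, PKSA and CYP703A2 as higher, and DYT1 as similar. The summed level of the list lay between 1291 and 2747 CPM in transgenic buds and between 2146 and 3499 CPM in WT buds, and these ranges overlapped. Its part in the level of PRX9 was not tested.

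Of the genes highest in WT buds, PRX42 (AT4G21960, chr4:11646109-11648644 on the minus strand) had 993, 1233 and 1011 CPM in the transgenic libraries and 928, 1281 and 729.5 CPM in the WT libraries. WT replicate 2 was the highest and WT replicate 3 the lowest, so that the transgenic libraries lay within the WT range. By edgeR, the log2 fold change was 0.14 with a standard error of 0.23 and an adjusted p of 0.918.

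PRX12 had 338, 389 and 306 CPM in the transgenic libraries and 248, 310.1 and 266 CPM in the WT libraries. Only transgenic replicate 3 fell below the highest WT library, and edgeR gave a log2 fold change of 0.33 with a standard error of 0.15 and an adjusted p of 0.722. Among the lignin peroxidases, PRX71, PRX66, PRX25 and PRX17 overlapped between genotypes, with log2 fold changes of 0.14, 0.23, 0.30 and 0.13. PRX17 acts in the lignified tissue of the silique, PRX66 in vessels, and PRX71 and PRX25 in stems. PRX66 had 443, 477 and 351 counts in the transgenic libraries and 438, 439 and 284 counts in the WT libraries, and it shares 5.74% of its stretches with AT5G51880, which overlaps it. PRX3, which is induced by cold, had a log2 fold change of 0.45 and PRX21 one of 0.11, and neither was called by edgeR.

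PRX33 and PRX34, neighbors that produce the apoplastic oxidative burst in defense, divided the libraries in another way. PRX34 had 106, 88.0 and 63.5 CPM in the transgenic libraries and 38.3, 50.3 and 87.2 CPM in the WT libraries. PRX33 had 18.3, 11.9 and 8.29 CPM in the transgenic libraries and 5.79, 7.80 and 14.6 CPM in the WT libraries. In each gene, transgenic replicate 3 was the lowest transgenic library and WT replicate 3 the highest WT library, and these had the highest and the lowest clock score. The log2 fold changes were 0.55 (standard error 0.30, adjusted p = 0.745) for PRX34 and 0.45 (standard error 0.39, adjusted p = 0.835) for PRX33 by edgeR. With the clock score as a covariate, PRX34 had a log2 fold change of 0.71 with an unadjusted p of 0.0031 and an adjusted p of 0.181.

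PRX4 was instead highest in transgenic replicate 3 and lowest in WT replicate 3 within each genotype. It had 0, 0 and 50 counts in the transgenic libraries and 33, 47 and 12 counts in the WT libraries. It was high in the libraries with a high clock score, transgenic replicate 3 and WT replicates 1 and 2. The clock order did not hold throughout, since WT replicate 3 had the lowest score but more counts than transgenic replicates 1 and 2. Its log2 fold change of -0.80 had a standard error of 1.04 (adjusted p = 0.897, edgeR). PRX15 and PRX49 kept their calls with the clock score as a covariate, at log2 fold changes of 3.18 and 3.04 (adjusted p = 0.00054 each, edgeR).

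**Figure D4:**
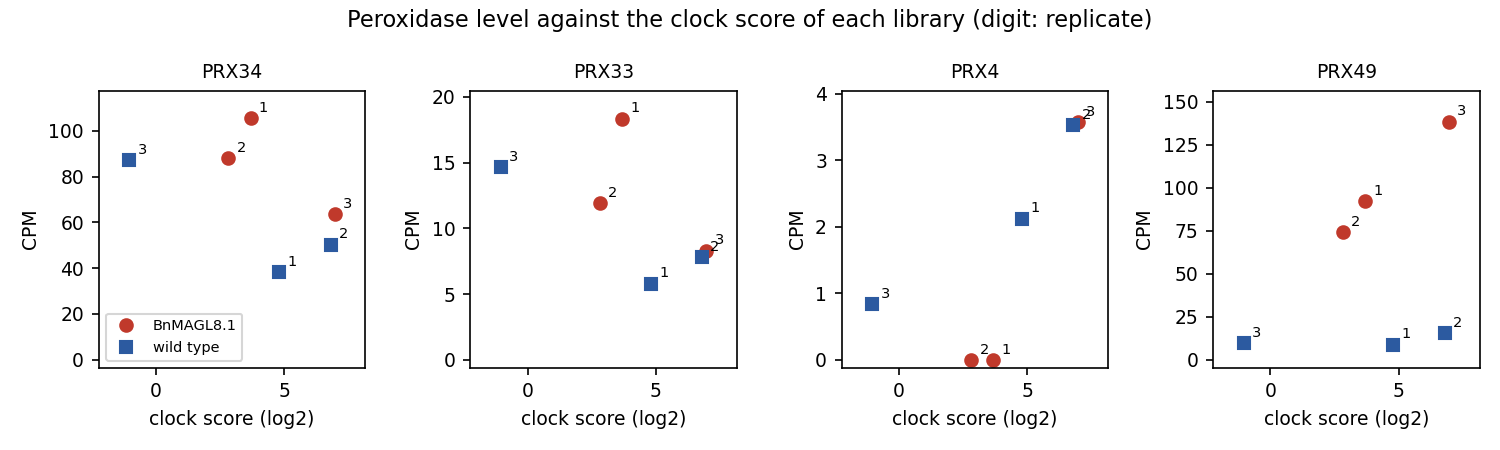
CPM of PRX34, PRX33, PRX4 and PRX49 against the clock score of each library, evening minus morning genes on the log2 scale, with the replicate number beside each point (circles, BnA9::BnMAGL8.1; squares, WT). PRX34 and PRX33 are low in WT replicates 1 and 2 and PRX4 is high there, while PRX49 is higher in each transgenic library than in each WT library.

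The coding sequences were aligned to see what the genes that differed have in common. Over the 528 pairs of the 33 genes, identity ran from 45.2% to 93.8% with a median of 52.3%. PRX15, PRX49 and PRX72, which had the smallest p-values, belong with PRX14 and PRX36 to a group whose 10 pairs share 62.3% to 91.7% of their bases, while their pairs with the other 28 genes share 47.7% to 60.9%. PRX15 is 91.7% identical to PRX14, 80.1% to PRX49 and 67.7% to PRX72. The next gene outside the group is PRX9, at 60.9% to PRX72. Whether the group moved as a whole cannot be told. PRX14 had 2, 0 and 0 counts in the transgenic libraries and 0, 0 and 2 counts in the WT libraries. PRX36 was almost without reads, and neither of these genes was tested.

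PRX14 and PRX15 lie 3155 bp apart on the same strand, so it matters whether a read can tell them apart. The longest stretch that their transcripts share is shown, since reads within it fit either gene. It spans an intron, at chr2:7888480-7888699 in PRX14 and chr2:7893184-7893404 in PRX15 on the minus strand of TAIR10.1 (RefSeq). The capitals mark the codons of the motif around the distal histidine, a residue of the active center.
PRX14 and PRX15: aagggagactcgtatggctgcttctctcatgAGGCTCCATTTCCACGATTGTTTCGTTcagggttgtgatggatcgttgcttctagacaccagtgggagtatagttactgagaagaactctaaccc
Stretches of 50 bases found in both genes made up 6.42% of PRX15 and 9.02% of PRX14, so most of the PRX15 transcript is its own. The counts of PRX15 are uncertain for that share.

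The codons of the distal motif are shown because they compare the members at a site of the active center. A match to the residue pattern used to search for this motif was found in 27 of the 33 genes. A gene without a match, such as PRX42, may still hold the motif in a form outside that pattern. In the genes that follow, the 27 bases encode the same residues as in PRX15, and capitals mark bases that differ from PRX15.
PRX15: aggctccatttccacgattgtttcgtt
PRX14: aggctccatttccacgattgtttcgtt
PRX36: aggctccatttccacgaCtgtttcgtC
PRX49: agActTcatttccacgaCtgtttcgtt
PRX72: agActccatttccacgaCtgtttcgtC
PRX9: agActTcaCttccacgaCtgCttcgtt
PRX40: CgTctTcatttccacgaCtgtttTgtC
PRX22: CgTctTcaCttTcacgaCtgCttTgtt
PRX14, PRX36, PRX49 and PRX72 differ from PRX15 at 0, 2, 3 and 3 of these bases, and PRX9, PRX40 and PRX22 at 5, 6 and 8. PRX22, which also stood higher, belongs to another group.

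PRX22 and PRX23 lie 897 bp apart and are 90.6% identical. Their group also holds PRX32, PRX33, PRX34, PRX37 and PRX38. The longest stretch that their transcripts share is shown for the same reason as that of PRX14 and PRX15, at chr2:16076656-16076858 in PRX22 and chr2:16079939-16080143 in PRX23 on the plus strand, again across an intron.
PRX22 and PRX23: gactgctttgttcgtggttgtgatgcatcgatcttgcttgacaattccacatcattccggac
It is short, and stretches of 50 bases in both genes made up 1.42% of PRX22 and 1.72% of PRX23. PRX33 and PRX34 lie 4385 bp apart, are 90.4% identical, and share 6.53% and 6.72% of their stretches, for which their counts are uncertain. PRX37, whose overexpression stunts plants, and PRX38 are the closest pair, at 93.8%, and were almost silent. PRX37 had no count, and PRX38 had 2 counts in transgenic replicate 3, 2 counts in WT replicate 2 and none elsewhere. PRX62 and PRX71, at 75.5% identity, had log2 fold changes of 1.49 and 0.14.

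**Figure D5:**
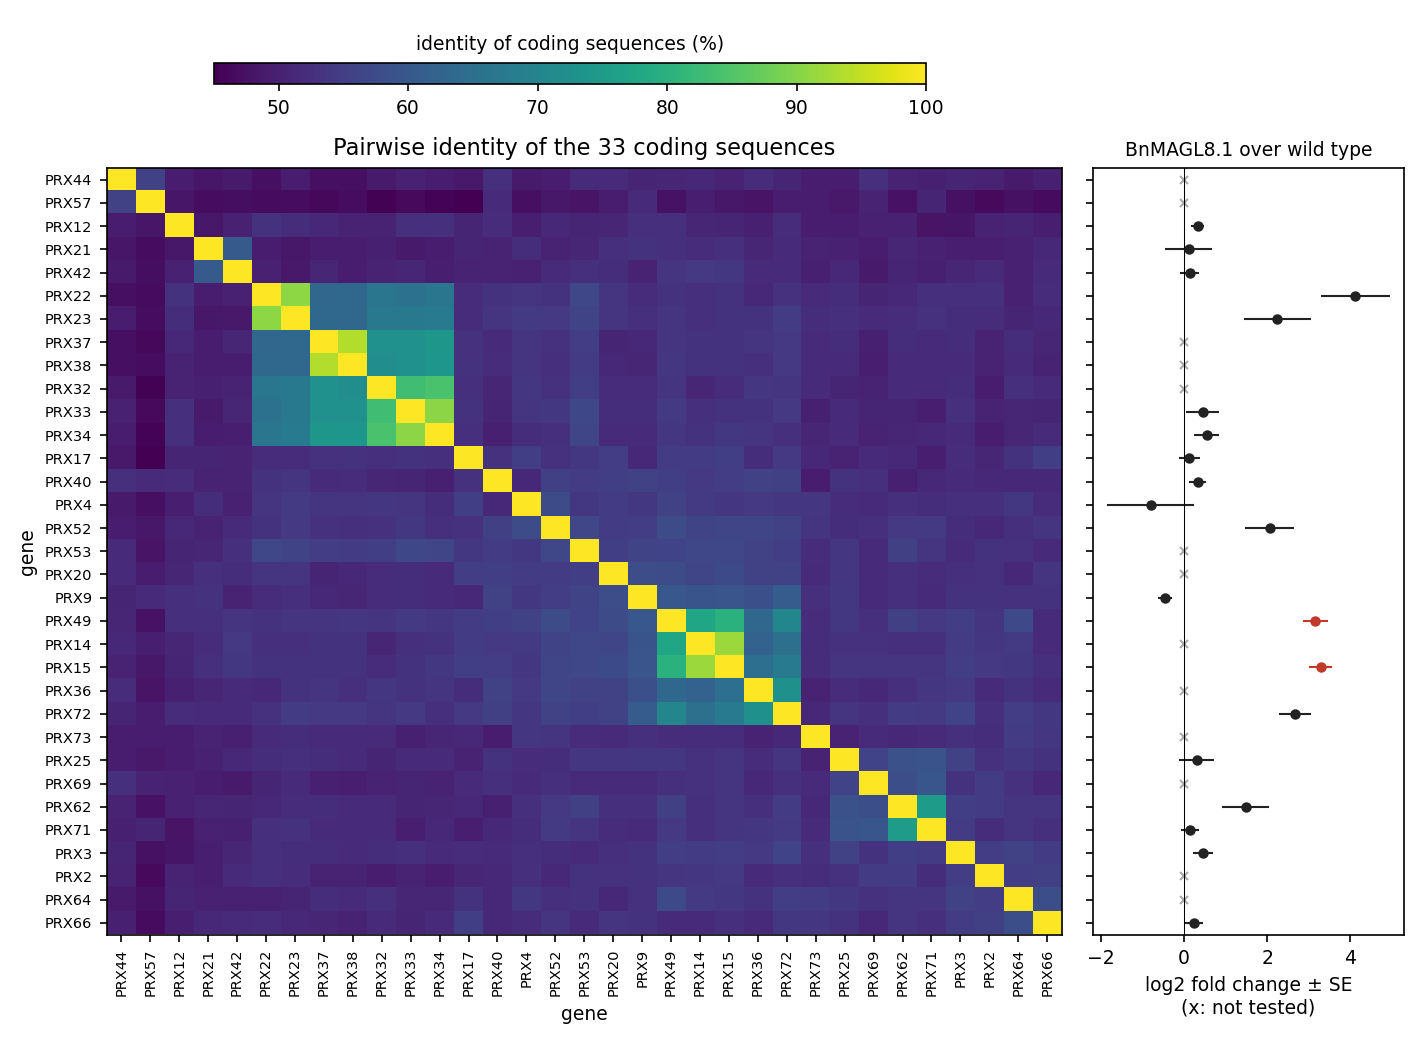
Identity of the coding sequences of the 33 genes in percent (left), ordered by average linkage, and the log2 fold change of BnA9::BnMAGL8.1 over WT with its standard error for the genes tested (right; crosses, not tested; red, adjusted p under 0.05). PRX49, PRX14, PRX15, PRX36 and PRX72 form 1 block, in which the 3 tested genes stand at 2.67 to 3.28, and PRX22 and PRX23 lie in another block.

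The 250 bases before the annotated start were searched for short motifs on both strands, as a description of the windows. The W-box core TTGAC, the core of sites bound by WRKY factors, was found in 18 of the 33 windows (54.5%), beside 44.9% of the 27419 windows of all genes matched. Of the 7 genes that were higher in each transgenic library it was in the windows of PRX15, PRX49, PRX72, PRX22, PRX52 and PRX62, and not in that of PRX23. It was also in those of PRX12, PRX34, PRX40 and PRX71, whose genotypes overlapped, and of PRX2, PRX20, PRX36, PRX38, PRX44, PRX53, PRX57 and PRX73, which were not tested. The AC elements of lignin genes were rare: ACCTAAC was found in PRX9, PRX20 and PRX52 (9.09%, beside 2.47% of all windows), ACCAACC in PRX53 alone, and ACCTACC in none. The G-box CACGTG was in none of the 33 windows and in 6.48% of all windows. The TATA box TATAAA was in 54.5% of the 33 windows and 47.4% of all windows. The E-box CANNTG, whose letters include the G-box, was in 60.6% of the 33 and 55.3% of all.

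PRX15 and PRX49, the genes that were called, share a run of 13 bases in these windows, 136 and 114 bases before their starts, and their windows are shown with that run in capitals. They lie at chr2:7893710-7893959 and chr4:17206034-17206283 on the minus strand of TAIR10.1 (RefSeq).
PRX15: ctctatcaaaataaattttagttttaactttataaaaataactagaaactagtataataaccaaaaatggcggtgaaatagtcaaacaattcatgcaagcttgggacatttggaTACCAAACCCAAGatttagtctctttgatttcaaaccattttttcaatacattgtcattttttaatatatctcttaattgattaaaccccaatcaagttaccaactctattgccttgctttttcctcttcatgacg
PRX49: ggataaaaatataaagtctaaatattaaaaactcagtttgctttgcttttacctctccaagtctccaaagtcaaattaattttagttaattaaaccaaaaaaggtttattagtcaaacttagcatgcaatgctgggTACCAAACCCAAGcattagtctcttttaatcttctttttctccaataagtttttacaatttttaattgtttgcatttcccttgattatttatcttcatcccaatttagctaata
The run was in 2 of the 27419 windows, those of PRX15 and PRX49. Among the 528 pairs of the 33 genes, 5 shared a run at least as long, and the median pair shared 8.5 bases. The pair was singled out after its values were seen, the genes are close relatives, and nothing was tested about the run. PRX72 shared runs of 9 bases with PRX49 and 8 with PRX15, which is near that median.

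As a sum, the 5 genes with an unadjusted p under 0.01 took 7.59 ± 2.75% of the summed CPM of the 33 genes in transgenic buds and 1.04 ± 0.103% in WT buds (SD, n = 3 each). These 5 were chosen by the same comparison, so the shares describe its size only. The sum of all 33 lay between 1828 and 2085 CPM in the transgenic libraries and between 1354 and 1927 CPM in the WT libraries, which overlapped through WT replicate 2. Without PRX42, the gene with the largest share, the sum was 843 ± 8.32 CPM in transgenic buds and 597 ± 66.7 CPM in WT buds (SD, n = 3 each). This sum still holds the 5 genes chosen by the comparison, and its difference was not tested.

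The remaining genes of the family and of neighboring pathways were set beside the list. Of the other 40 class III peroxidases, 11 had no count and 14 were tested. Among these, 10 stood higher and 4 lower, with a median of 0.15 on the log2 scale. None was called by edgeR, DESeq2 or voom, and none had an unadjusted p under 0.05. PRX30 had the smallest p, with 3.20, 2.77 and 3.29 CPM in the transgenic libraries and 1.99, 2.18 and 2.02 CPM in the WT libraries, all transgenic libraries being above all WT libraries (log2 fold change 0.58, standard error 0.30, adjusted p = 0.743, edgeR). PRX56 and PRX51 followed, with log2 fold changes of 0.77 and -0.38, and overlapped between genotypes.

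NADPH oxidases make the superoxide that becomes the hydrogen peroxide used by peroxidases. Of 10 listed, 4 were tested, 1 was higher and 3 lower, none was called by edgeR, DESeq2 or voom, and 2 were lower by an unadjusted p under 0.05 (4.26% of all genes). RBOHC, an oxidase of root hairs, had 44, 56 and 39 counts in the transgenic libraries and 43, 28 and 34 counts in the WT libraries, and was separated only after scaling, with 2.79 CPM in the lowest transgenic library against 2.77 CPM in the highest WT library (log2 fold change 0.51, standard error 0.31, adjusted p = 0.761, edgeR). RBOHE, which acts in the tapetum, had 30, 34 and 20 counts in the transgenic libraries and 47, 55 and 66 counts in the WT libraries, without overlap (log2 fold change -0.90, standard error 0.34, adjusted p = 0.720, edgeR). RBOHD overlapped between genotypes, at a log2 fold change of -0.71. Laccases couple lignin precursors with oxygen in place of hydrogen peroxide. Of 17 listed, 9 were tested, 6 higher and 3 lower, none called by the same tools, and LAC5 alone had an unadjusted p under 0.05, being higher (2.57% of all genes). LAC5 had 12, 16 and 16 counts in the transgenic libraries and 6, 2 and 0 counts in the WT libraries, and it too reached the filter's minimum in transgenic libraries only.

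The enzymes that make monolignols, the lignin precursors, had 11 of 16 higher and 5 lower, with a median of 0.22 on the log2 scale, and 1 in each direction had an unadjusted p under 0.05, beside 2.57% of all genes higher and 4.26% lower. Markers of xylem, where several of these peroxidases lignify walls, had a median log2 fold change of 0.019 over 8 genes, and their summed level lay between 83.8 and 106 CPM in transgenic buds and between 83.0 and 97.7 CPM in WT buds. Of 14 root markers, 3 were tested, and 6 had no count in any library, among them CASP1 and MYB36 of the endodermis. The summed level of the root markers lay between 9.29 and 10.7 CPM in transgenic buds and between 7.39 and 20.7 CPM in WT buds. None of the monolignol, xylem or root genes was called by edgeR, DESeq2 or voom, and no xylem or root gene had an unadjusted p under 0.05.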

How the data were processed

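RNA of flower buds was measured in 3 BnA9::BnMAGL8.1 and 3 WT libraries. The deposited values are counts per gene, which the authors obtained by mapping reads to the Arabidopsis genome plus the transgene's coding sequence. Per the submitters' processing notes, HISAT2, featureCounts and DESeq2 were used with the build TAIR10. The sources used here do not give strand use, the handling of multiply mapped reads, or whether mates were counted separately. Between 75.5% and 78.0% of counts from 1 to 20 were even. If mates were counted separately, a low count stands for fewer fragments than its number, which was not tested.

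Genes were filtered by edgeR at its defaults (minimum count 10, minimum total 15), scaled by TMM and compared in R 4.3.3 by the quasi-likelihood test of edgeR 4.0.16, with genotype as the only factor. The p-values of 18642 genes were adjusted by the Benjamini-Hochberg method. Alternatives were RLE size factors, 2 other filters, DESeq2 1.42.0, voom (limma 3.58.1), the replicate number as a block, the clock score as a covariate, edgeR's older method (added after seeing the data) and leaving out each library. The tests were tried on simulated data with known 2-fold and 4-fold changes, at an adjusted p under 0.05. Of the 2-fold changes, edgeR recovered 2%, DESeq2 28% and voom 2%. Of the 4-fold changes, they recovered 53%, 81% and 46%. A gene that was not called may therefore still differ between genotypes. Among the genes simulated without a change, edgeR called 4, DESeq2 60 and voom 3. A call made by DESeq2 alone, such as those of PRX22 and PRX72, is less certain for that reason. The floor of 3 counts covers counting error only. Replicates of a genotype differed by more than sampling noise (chi-square per degree of freedom 15.4 to 56.0), so each counted as 1 sample.

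Lengths, positions and sequences come from RefSeq's TAIR10.1, in which 27420 of 27629 entries of the count tables were matched. Coding sequences were aligned globally with Biopython 1.88 and identity was taken over all alignment columns. Figures were drawn with matplotlib 3.10.9.

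The 33 members and all lists were chosen with earlier results of these data known. Any member may be named. Values per library are given for those with an adjusted p under 0.05 or an unadjusted p under 0.01, for PRX9 and PRX40, for the 5 highest per kb in WT buds and for those sharing stretches of 50 bases. PRX4, PRX32, PRX36, PRX44, PRX62 and PRX66 were added after their values were seen, and so was the run shared by PRX15 and PRX49. From the other lists, genes with an unadjusted p under 0.01 and the 3 other peroxidases with the smallest p are named, while RBOHC, RBOHD, RBOHE and the genes named for a count of 0 were chosen after their values were seen.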

Additional observations from a re-analysis of the deposited data

How the results depend on the processing

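No listed peroxidase was called lower under any of 14 alternatives. The number called higher was 2, and became 4 with DESeq2 and 0 with voom, where the adjusted p was 0.0724 for PRX15 and 0.0723 for PRX49. With 1 library left out it lay between 0 and 2, being 1 (PRX15) without transgenic replicate 1 and 0 without WT replicate 1 or 2. Over all alternatives the adjusted p ran from 1.3e-23 to 0.311 for PRX15 and from 1.7e-22 to 0.412 for PRX49. PRX52 had 0.229 at the lowest. At an unadjusted p under 0.01, 5 genes were higher, 3 when 10 counts were asked of every library, since PRX22 and PRX52 were then not tested, and 4 to 5 with 1 library left out. The lower ones were 0 to 1 with 1 library left out, through PRX4 without transgenic replicate 3. The median log2 fold change of 0.39 lay between 0.28 and 0.68 with 1 library left out, and was 0.68 without WT replicate 3. Over all genes, 3 were called by edgeR, 62 by DESeq2 and 0 by voom.

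Signs turned for 5 genes, all near 0. With 1 library left out, the log2 fold change lay between -0.059 and 0.34 for PRX71 and between -0.073 and 0.68 for PRX25 (below 0 without transgenic replicate 1), between -0.054 and 0.38 for PRX17 (below 0 without transgenic replicate 2) and between -0.034 and 0.38 for PRX42 (below 0 without WT replicate 3). That of PRX21 was -0.093 with voom and lay between -0.17 and 0.54 with 1 library left out, below 0 without WT replicate 3 or either of transgenic replicates 1 and 2. With coding length in place of exon length, 13 of the 20 tested genes kept their rank in WT buds. With a floor of 10 counts, 21 genes lay above it in any library and 14 in every library, against 24 and 15.

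With the replicate number as a block, 0 peroxidases were called higher (adjusted p = 0.311 for PRX15 and 0.412 for PRX49, edgeR) at log2 fold changes of 3.25 and 3.15. Across genes, deviations from the genotype means correlated at -0.08, -0.10 and -0.35 between libraries of the same number. No resemblance by number was thus seen. With 3 libraries per genotype, this cannot show whether the samples were taken in pairs. The causes of these changes were not tested otherwise. Genes that did not pass the filter on low counts got no test, so nothing is said of a difference in them.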
